A study of Homo sapiens with 18 samples.

Results

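The IFIT and OAS genes are 2 families of antiviral genes that cells switch on in response to interferon. The members are 4 human IFIT genes (IFIT1, IFIT2, IFIT3 and IFIT5) and 4 OAS genes (OAS1, OAS2, OAS3 and OASL), taken by family membership. IFIT1B, a close relative of IFIT1, was not among them. Family membership uses no measured value, but earlier results of these data were known when the members were chosen. All 8 members were found among the 35933 genes with values. They were followed through 18 RNA sequencing libraries of the MCF10A breast cancer progression series, in which METTL3, the catalytic subunit of the complex that writes N6-methyladenosine (m6A) into messenger RNA, was targeted by CRISPR to learn how transcripts respond at successive stages. In the libraries labelled METTL3 CRISPR, the families rose in MCF10CA1h, where 7 of 8 members passed the test. In MCF10A all 8 had lower means and 2 passed, and in MCF10AT1 the signs were mixed and 1 member passed.

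MCF10A cells come from breast epithelium, became immortal spontaneously and form no tumors. Stable expression of a mutated HRas in them gave MCF10AT1, and repeated passage of MCF10AT1 as xenografts in mice gave MCF10CA1h. Each line was sequenced as a "Control Negative CRISPR" group, which received a control sgRNA, and as a "METTL3 CRISPR knockdown" group, which received an sgRNA to exon 1 of METTL3, with 3 libraries per group named a, b and c. Both kinds of line were transiently transfected with an all-in-one plasmid for Cas9, an sgRNA and mCherry, with a separate construct for the control sgRNA and for the METTL3 sgRNA. They were sorted for mCherry in repeated rounds and diluted to single cells, and each group came from a single CRISPR line. All lines were grown in the same medium with horse serum, insulin, hydrocortisone, cholera toxin and epidermal growth factor, and no interferon or virus is named among the treatments. The 3 libraries of a group therefore do not sample the spread between clones, and their p-values measure the spread between libraries of 1 line, which may be technical.

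By way of background, interferons of types I and III bind receptors that signal through the kinases JAK1 and TYK2 to a transcription factor complex that holds STAT2 and IRF9. That complex binds a DNA element with repeated GAAA, the interferon-stimulated response element, at the promoters of its target genes. The IFIT proteins are built of tetratricopeptide repeats and bind foreign RNA: IFIT1 holds RNA whose cap lacks ribose methylation and is stabilized by IFIT3, IFIT2 joins the same complexes, and IFIT5 binds RNA with a 5′ phosphate end on its own. OAS1, OAS2 and OAS3 are enzymes that, on contact with double-stranded RNA, make 2′,5′-linked oligoadenylates (2-5A), a second messenger that leads to the breakdown of RNA. OASL lacks that enzyme activity and carries ubiquitin-like domains through which it helps the RNA sensor RIG-I.

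The 8 genes lie in 3 places of the hg38 genome (GENCODE annotation). The IFIT genes share 1 cluster on the plus strand of chromosome 10, with IFIT2 at chr10:89283694-89309271, IFIT3 at chr10:89327307-89377473, IFIT1 at chr10:89392546-89406487 and IFIT5 at chr10:89414568-89421605. Each has 2 exons in its canonical transcript. OAS1 (chr12:112905856-112933219), OAS3 (chr12:112938051-112976460) and OAS2 (chr12:112978395-113011723) follow each other on the plus strand of chromosome 12 with 6, 16 and 10 exons. OASL stands apart on the minus strand of the same chromosome at chr12:121017763-121039246, with 6 exons.

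Since the members share induction by interferon, their promoters were searched on both strands for 2 spellings of the core of the interferon response element, GAAANNGAAA and GAAANGAAA, whose matches may overlap. RefSeq promoters (GRCh38.p14, the 250 bases before and 50 bases after a start site) were at hand for IFIT1, IFIT3, IFIT5, OAS1 and OAS3, with 2 start sites for IFIT3, and each of these 5 genes held at least 1 match. Over all 35116 promoter entries of the same length, 3.57% held GAAANNGAAA, 3.12% held GAAANGAAA and 6.40% held either. For these 5 genes the stretches that hold the matches upstream of the start are shown, with 1 or both of the spellings in each. All are on the plus strand, from 5′ to 3′, and capitals mark the matches, which read as TTTC repeats where the match is on the minus strand.
IFIT1, chr10:89392495-89392541: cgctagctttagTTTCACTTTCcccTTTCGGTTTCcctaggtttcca
IFIT3, first start site, chr10:89327829-89327896: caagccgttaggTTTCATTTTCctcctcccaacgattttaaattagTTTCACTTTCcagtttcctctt
IFIT3, second start site, chr10:89332423-89332504: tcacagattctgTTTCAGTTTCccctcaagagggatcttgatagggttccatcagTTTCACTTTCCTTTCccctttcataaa
IFIT5, chr10:89414511-89414567: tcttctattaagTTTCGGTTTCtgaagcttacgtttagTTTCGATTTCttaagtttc
OAS1, chr12:112906933-112906961: ctcccttctgagGAAACGAAAccaacagc
OAS3, chr12:112938314-112938473: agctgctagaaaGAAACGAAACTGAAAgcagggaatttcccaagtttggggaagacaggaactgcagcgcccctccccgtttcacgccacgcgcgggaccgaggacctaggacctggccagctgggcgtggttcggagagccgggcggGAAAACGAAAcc

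IFIT1 held 2 matches within the 128 bases before its start site. IFIT5 held 2 before the start site and 1 that ended after it. OAS1 held a single match, of the shorter spelling, close to its start site. These matches describe letters in the promoters, and binding was not measured.

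The deposited values are normalized counts, which the authors made with DESeq2 from kallisto estimates, and they summed to between 21347352 and 31681834 per library. Reads behind a value are not known, which leaves its counting error unknown too. METTL3, the gene that the sgRNA targets, was read before the others. Its normalized counts were 459 to 752 in MCF10A controls and 509.8 to 981 in the libraries labelled METTL3 CRISPR (128% of the control mean), 805 to 1016 and 752 to 902 in MCF10AT1 (88.5%), and 1022 to 1280.4 and 745 to 843 in MCF10CA1h (70.8%). By an exact permutation test (two-sided) p was 0.3, 0.3 and 0.1 in these lines, and 3 libraries against 3 cannot go below 0.1. By limma, the test used below, METTL3 was lower in MCF10CA1h (log2 fold change -0.49, adjusted p = 0.0234). It did not pass in MCF10A (0.33, adjusted p = 0.618) or MCF10AT1 (-0.17, adjusted p = 0.707). Lower METTL3 RNA was therefore not seen in MCF10A and not shown for MCF10AT1, so a group is called by what its label says. The paper reports METTL3 protein knockdown by Western blot in each line, moderate in MCF10CA1h, and a lesser decrease of the mRNA by real-time PCR. It reports m6A of total RNA as significantly lower in MCF10AT1 and MCF10CA1h, and as not significantly lower in MCF10A. Protein and m6A were not measured in these libraries. Of 12 breast epithelial markers, all had values in every group, and their summed normalized count was 104044 to 833357 per library. Of 8 leukocyte markers, PTPRC and CD3E were at most a few normalized counts in any group (means up to 2.20 and 0.687), while the group means of CD14 ran from 62.6 to 2075, those of CD68 from 185 to 1139.5 and those of CSF1R from 15.2 to 146.

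In MCF10CA1h, all 8 members were higher in each library labelled METTL3 CRISPR than in each control, and 7 of 8 passed the test (limma, Benjamini-Hochberg adjusted p under 0.05 over all genes tested). Of all 15127 genes tested in this line, 12.8% passed, 7.91% in the higher direction, and 17.4% were non-overlapping with the labelled METTL3 CRISPR libraries above. The median log2 fold change was 3.07 over the members, 4.32 over the IFIT genes and 2.52 over the OAS genes, against -0.02 over all genes tested. When the libraries were scaled to equal sums, the share of higher genes among the genes past the threshold went from 62.0% to 50.2%, with all 7 members still called. In bulk RNA, more cells that express a gene and more RNA per cell cannot be told apart.

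IFIT1, the cap-sensing member, had normalized counts of 64.3, 46.1 and 48.1 in MCF10CA1h control libraries a, b and c, and 5892, 2103 and 2751 in the labelled METTL3 CRISPR libraries. The groups were far apart, with library a above libraries b and c after CRISPR. The mean was 67.8-fold higher (3582 ± 2027 against 52.8 ± 9.98, SD, n = 3), or 5.93 ± 0.32 log2 units (fit's standard error, adjusted p = 1.8e-05). IFIT3, the partner that stabilizes IFIT1, was at 137, 154 and 174 in the controls and at 5561, 2212 and 2744 in the labelled METTL3 CRISPR libraries, which is 22.6-fold higher (log2 fold change 4.38, standard error 0.28, adjusted p = 2.6e-05). Library a was again the highest. IFIT2 went from 24.5, 21.8 and 34.4 to 662, 405 and 544, or 19.98-fold (log2 fold change 4.27, standard error 0.25, adjusted p = 1.8e-05). Per kilobase of transcript, IFIT2 still had the lowest mean of the 8 members after CRISPR, at 158 normalized counts. IFIT5, the IFIT member that acts on its own, was at 484, 495 and 398 in the controls and at 1091, 541 and 723 in the labelled METTL3 CRISPR libraries. Its groups did not overlap, but the 1.71-fold difference did not pass the threshold (log2 fold change 0.72, standard error 0.22, adjusted p = 0.0612).

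The 2-5A synthetases rose by 4.63- to 6.58-fold, from control levels per kilobase of transcript above those of the IFIT genes. OAS1 was at 1006, 946 and 1075 in the MCF10CA1h controls and at 8632, 5256 and 6040.4 in the labelled METTL3 CRISPR libraries, 6.58-fold higher (log2 fold change 2.69, standard error 0.16, adjusted p = 2.1e-05). OAS2 went from 1191, 1283 and 1025 to 8857, 4556 and 5272, or 5.34-fold (log2 fold change 2.36, standard error 0.21, adjusted p = 0.00012). OAS3, the longest of the enzymes, was at 2458, 2541 and 2086 in the controls and at 15313, 9058 and 8432 after CRISPR, 4.63-fold higher (log2 fold change 2.16, standard error 0.20, adjusted p = 0.00013). All 3 synthetases were highest in library a. The OAS3 call was lost when the 18 libraries were fitted together (adjusted p = 0.104), while its fold change was the same. OASL, the member without enzyme activity, rose from 314, 258 and 243 to 4494, 2288 and 2524, or 11.4-fold (log2 fold change 3.45, standard error 0.23, adjusted p = 2.6e-05). Of the breast epithelial markers, 6 of 11 tested were higher and 0 were lower in the labelled METTL3 CRISPR libraries of this line (summed normalized counts 604559 to 695108 against 408808 to 430078). The leukocyte markers CD3E and NKG7 were at 0 in all 6 libraries, although CD68 (1.05) and CSF1R (1.49) were higher and CD14 (-1.14) lower (summed list 921 to 1141 against 894 to 1009). Of 6 fibroblast markers tested, 1 was higher (DCN 0.87) and 1 lower (COL3A1 -1.22). Of 2 endothelial markers tested, 1 was lower (PECAM1 -1.20). The part of these markers in the result was not tested.

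**Figure D1:**
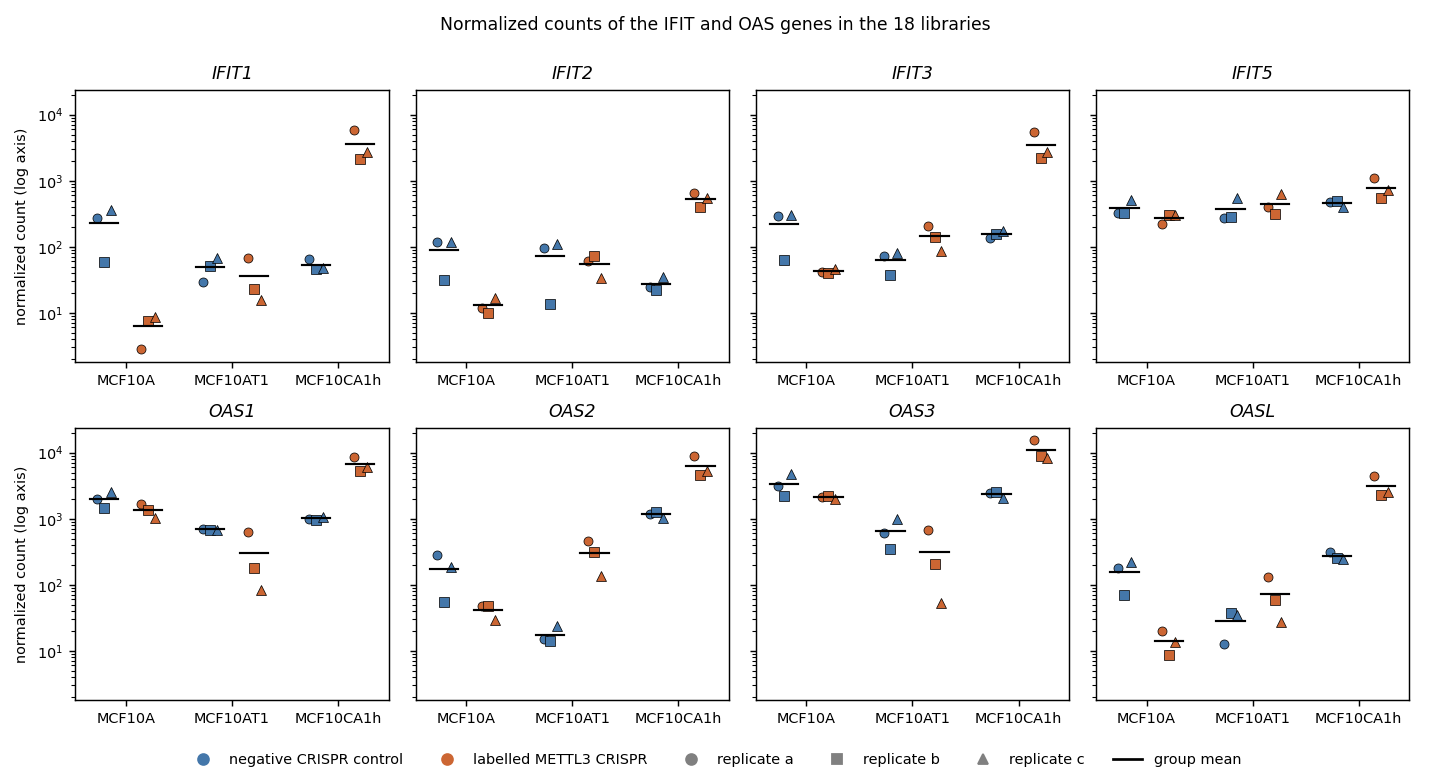
Normalized counts (log axis) of the 4 IFIT and 4 OAS genes in the 18 libraries, by line, with 1 point per library, its shape giving the replicate letter, and a bar at the group mean of 3 libraries. In MCF10CA1h the labelled METTL3 CRISPR libraries stood above the controls for all 8 genes, in MCF10A they stood below them for 6 genes, and in MCF10AT1 they stood above for IFIT3 and OAS2 and below for OAS1.

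In MCF10A, all 8 members had a negative log2 fold change, and 2 of 8, IFIT1 and OASL, passed the test as lower in the libraries labelled METTL3 CRISPR. Of the 15416 genes tested, 2.65% passed, 1.49% in the lower direction. The labelled METTL3 CRISPR libraries were below every control library for 6 members (IFIT1, IFIT2, IFIT3, IFIT5, OAS2 and OASL), against 13.4% of all genes tested, and 6 members reached an unadjusted p under 0.05, against 18.4% of all genes. The median log2 fold change was -1.92 over the members, -2.27 over the IFIT genes and -1.20 over the OAS genes, against 0.00 over all genes tested.

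IFIT1 was at 272, 58.5 and 359.5 in MCF10A control libraries a, b and c and at 2.79, 7.53 and 8.52 in the labelled METTL3 CRISPR libraries. Its mean was 36.6-fold lower (6.28 ± 3.06 against 230.02 ± 155, SD, n = 3), or -4.74 ± 0.71 log2 units (fit's standard error, adjusted p = 0.0172). Because the lower values are within a few normalized counts of 0, this fold change depends on the pseudocount and was -4.08 with a pseudocount of 5. OASL was at 179, 68.8 and 219.6 in the controls and at 19.7, 8.49 and 13.5 after CRISPR, 11.2-fold lower (log2 fold change -3.31, standard error 0.51, adjusted p = 0.0187). In both genes control library b lay well below the other controls, yet still above the labelled METTL3 CRISPR libraries. With the replicate letter as a block, IFIT2 (log2 fold change -2.49, adjusted p = 0.0157) and IFIT3 (-2.05, adjusted p = 0.0321) passed as well. This made 4 of 8 members in a fit that called 7.60% of all genes. Without the block the adjusted p of IFIT2 and IFIT3 was 0.0602 and 0.102. The labels do not state a pairing by letter, which was inferred from correlations of 0.12 to 0.22 in these same data.

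IFIT2 went from 117, 31.4 and 118 to 11.9, 10.01 and 17.0 in MCF10A, and IFIT3 from 293, 64.1 and 304 to 41.7, 40.2 and 45.7. In each gene the labelled METTL3 CRISPR libraries were close to each other and control library b came nearest to them. OAS2 was at 279.9, 55.2 and 186 in the controls and at 47.5, 46.9 and 29.4 in the labelled METTL3 CRISPR libraries (log2 fold change -1.79, standard error 0.57, adjusted p = 0.144). Here, too, the gap between the groups rested on control library b at 55.2, and the difference did not pass. The remaining members had small differences: IFIT5 (325, 324 and 513 against 225, 302 and 298) had a log2 fold change of -0.47 (adjusted p = 0.361), OAS1 (1975, 1447 and 2550.3 against 1649, 1340.3 and 1012) of -0.57 (adjusted p = 0.280), and OAS3 (3139, 2215 and 4762 against 2169.6, 2243 and 1963.5) of -0.60 (adjusted p = 0.266). OAS1 and OAS3 were the only members whose groups overlapped in this line.

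The MCF10A result turned on single libraries. Without control library b, which was the lowest control for all 8 members, 4 of 8 members passed (IFIT1, IFIT2, IFIT3 and OASL). Without control library c 1 member passed, and without any 1 of the labelled METTL3 CRISPR libraries a, b or c none of 8 did by limma (6, 5 and 5 members at an unadjusted p under 0.05), in fits in which between 52 and 141 of all genes passed. The directions did not turn: over these 6 fits the log2 fold change of IFIT1 was between -5.54 and -4.24 and that of OASL between -3.81 and -2.98. Of the breast epithelial markers 1 of 11 tested was higher and 0 were lower (summed normalized counts 448089 to 481237 against 467282 to 833357), with 6 at an unadjusted p under 0.05. The leukocyte list summed to 339 to 613 against 839 to 2258, and its 3 tested members, CD14 (log2 fold change -1.45), CD68 (-1.77) and CSF1R (-0.98), had an unadjusted p under 0.05 and none passed by limma. Of 3 endothelial markers tested, PECAM1 was at 3.13 (adjusted p = 0.0772). KDR (-2.72, adjusted p = 0.0937) and TEK (-2.47, adjusted p = 0.0772) went the other way, with VWF at 0 in the labelled METTL3 CRISPR libraries. The part of these markers in the result was not tested.

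In MCF10AT1 the members did not move together. OAS2 alone of the 8 passed the test, as higher, where 13.0% of the 16050 genes tested passed and 7.07% passed in the higher direction, so that the share of members is near the background. Log2 fold changes were positive for 4 members and negative for 4, with a median of 0.14 against 0.02 over all genes tested. The groups did not overlap for IFIT3 and OAS2, which were higher after CRISPR, and for OAS1, which was lower, and such separation was seen for 32.8% of all genes. OAS2 was at 14.9, 14.3 and 23.7 in the controls, where it was lower than in any other group of the 6, and at 466, 316 and 138 in the labelled METTL3 CRISPR libraries. Its mean was 17.4-fold higher (307 ± 165 against 17.6 ± 5.23, SD, n = 3), or 3.91 ± 0.54 log2 units (fit's standard error, adjusted p = 0.00237).

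Its neighbours in the same cluster had opposite signs. OAS1 was at 705, 679 and 683 in the MCF10AT1 controls, values close to each other, and at 632, 177 and 84.7 in the labelled METTL3 CRISPR libraries (log2 fold change -1.70, standard error 0.64, adjusted p = 0.129). OAS3 was at 606, 346 and 988 and at 679, 207 and 53.7 (log2 fold change -1.58, standard error 0.84, adjusted p = 0.263). In both genes library a of the labelled METTL3 CRISPR group was near the controls and library c was far below them. With the replicate letter as a block, OAS1 passed (adjusted p = 0.0162), which made 2 of 8 members, near the 24.5% of all genes called in that fit. OAS1 also passed without labelled METTL3 CRISPR library a (log2 fold change -2.48, adjusted p = 0.0129), and without library c it was at -1.04 (adjusted p = 0.240) and OAS3 at -0.66 (adjusted p = 0.510). OASL was at 12.9, 37.2 and 34.4 in the controls and at 133, 59.0 and 27.8 in the labelled METTL3 CRISPR libraries, groups that overlapped (log2 fold change 1.21, standard error 0.70, adjusted p = 0.309).

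Of the IFIT genes in MCF10AT1, none passed by limma and 1, IFIT3, had an unadjusted p under 0.05, against 27.6% of all genes tested. IFIT3 was at 72.3, 37.5 and 79.6 in the controls and at 207, 142 and 85.0 in the labelled METTL3 CRISPR libraries (log2 fold change 1.16, standard error 0.50, adjusted p = 0.173). IFIT1, its partner, was at 29.8, 51.3 and 68.6 and at 68.2, 22.6 and 15.9 (log2 fold change -0.67, standard error 0.65, adjusted p = 0.551). The IFIT1 groups overlapped, and the highest and the lowest of its 6 values were control library c and labelled METTL3 CRISPR library c. IFIT2 (94.2, 13.7 and 112 against 60.2, 73.5 and 33.3) had a log2 fold change of -0.01 (standard error 0.80). IFIT5 (272, 282 and 551 against 398, 315 and 621) had one of 0.29 (standard error 0.40). The groups overlapped for both genes, with control library b the lowest of the 6 for IFIT2. The 95% interval of the IFIT2 difference ran from -1.84 to 1.83. Of the epithelial markers in this line, 7 of 12 were lower and 0 higher in the labelled METTL3 CRISPR libraries, with CDH1 at a log2 fold change of -6.79 and EPCAM at -5.16, and 2 of 5 fibroblast markers tested were higher (THY1 9.61, COL3A1 8.95). Their summed normalized counts were 104044 to 196513 against 161179 to 237896 for the epithelial list and 2703 to 4509 against 427 to 659 for the fibroblast list. The control means of THY1 and COL3A1 were 1.53 and 0.75, so both reached the filter only through the labelled METTL3 CRISPR libraries. The defining fibroblast marker COL1A2 was at a mean of 1.91, and in the 3 labelled METTL3 CRISPR libraries the leukocyte markers PTPRC, CD3E, LYZ and NKG7 were at 0. Of the 8 leukocyte markers 4 were tested and none passed by limma, with 2 at an unadjusted p under 0.05. CD14 had means of 898 and 2075 (log2 fold change 1.31, adjusted p = 0.0567) and CD68 of 185 and 415, and the list summed to 2008 to 2979 against 869 to 1609. The part of these markers in the OAS2 result was not tested.

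**Figure D2:**
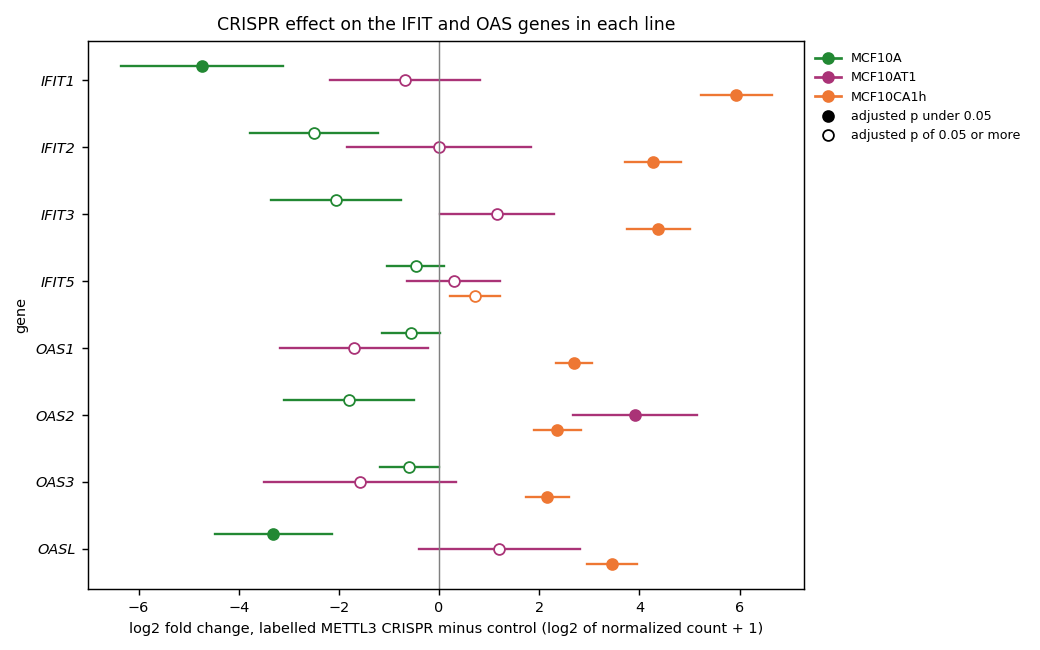
Log2 fold change of the labelled METTL3 CRISPR libraries against the controls, on log2(normalized count + 1), with its 95% interval from limma, for each member in each line. Filled points have an adjusted p under 0.05: IFIT1 and OASL in MCF10A, OAS2 in MCF10AT1, and every member but IFIT5 in MCF10CA1h.

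The difference of the effect between lines was tested directly in 1 fit of the 18 libraries. Between MCF10CA1h and MCF10A the effects differed for 6 of 8 members, where 5.34% of 15897 genes did. The effect was 10.67 log2 units higher in MCF10CA1h for IFIT1 (standard error 0.92, adjusted p = 9.5e-06), and it differed by 6.76 for IFIT2, 6.43 for IFIT3, 6.76 for OASL, 4.16 for OAS2 and 3.25 for OAS1 (adjusted p between 0.00010 and 0.0083). IFIT5 (1.19, adjusted p = 0.172) and OAS3 (2.76, adjusted p = 0.0789) missed the threshold, and with the replicate block IFIT5 passed (adjusted p = 0.0421). Between MCF10CA1h and MCF10AT1 the effects differed for 5 of 8 members, IFIT1, IFIT2, IFIT3, OAS1 and OAS3, by 3.21 to 6.60 log2 units, where 18.2% of all genes did. OAS2, by contrast, changed by 3.91 in MCF10AT1 and 2.36 in MCF10CA1h, and that difference of -1.55 did not pass (95% interval -3.07 to -0.036, adjusted p = 0.155). Between MCF10AT1 and MCF10A the effects differed for 4 of 8 members, where 21.6% of all genes did. OAS2 differed by 5.71 (adjusted p = 2.3e-05), OASL by 4.51, IFIT1 by 4.07 and IFIT3 by 3.22. These comparisons share libraries, so they are not independent of each other.

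Among the controls, all 4 OAS genes were lower in MCF10AT1 controls than in MCF10A controls, and of the IFIT genes only IFIT1 was, so that 5 of 8 members passed where 28.1% of 15652 genes did. OAS2 was 9.85-fold lower in MCF10AT1 (17.6 ± 5.23 against 174 ± 113, SD, n = 3, log2 fold change -2.98, adjusted p = 0.00531), OAS3 5.22-fold (log2 fold change -2.44, adjusted p = 0.00336), OASL 5.53-fold (-2.40, adjusted p = 0.0106) and OAS1 2.89-fold (-1.49, adjusted p = 0.00242). None of these 4 genes overlapped between the groups, where 19.3% of all genes were apart with MCF10AT1 below. IFIT1 (-1.90, adjusted p = 0.0471) overlapped and lost its call without the filter, without the intensity trend and with the replicate block (adjusted p of 0.0510 to 0.0658). With 1 library left out, the IFIT1 call was lost in 7 of 9 fits (limma, adjusted p up to 0.169).

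From MCF10AT1 to MCF10CA1h controls, 3 of 8 members were higher, where 21.8% of all genes passed. OAS2 rose from 17.6 ± 5.23 to 1166 ± 131 (SD, n = 3), or 6.0 ± 0.52 log2 units (fit's standard error, adjusted p = 0.00013), OASL by 3.35 log2 units (adjusted p = 0.00211) and OAS3 by 1.99 (adjusted p = 0.00653). Of the IFIT genes none passed in this comparison by limma, and IFIT3 alone had an unadjusted p under 0.05 (log2 fold change 1.35, adjusted p = 0.119). Between MCF10A and MCF10CA1h controls 3 of 8 members differed, where 37.8% of all genes did: OAS2 was higher in MCF10CA1h (log2 fold change 3.02, adjusted p = 0.00234), and OAS1 (-0.94, adjusted p = 0.00899) and IFIT1 (-1.76, adjusted p = 0.0495) were lower. In the fit of all 18 libraries OAS1 lost its call (adjusted p = 0.116). The IFIT1 call was lost in 6 of 9 other settings, and in 6 of 9 fits with 1 library left out. This share of the members is near that of all genes, so nothing particular to the members is read from it.

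Across the 6 groups the order of the levels was as follows. The labelled METTL3 CRISPR libraries of MCF10CA1h were the highest group for all 8 members, and all 3 of their values lay above those of the group with the next mean. For IFIT5, however, library b of that group (541) lay below library c of both MCF10AT1 groups (551 and 621). At the other end, the labelled METTL3 CRISPR libraries of MCF10A were lowest for IFIT1, IFIT2, IFIT3, IFIT5 and OASL, and of these only IFIT1 and IFIT2 were apart from the next group. For OAS1 and OAS3 the lowest group was the labelled METTL3 CRISPR libraries of MCF10AT1, apart from the next group for OAS1 and overlapping it for OAS3. In the middle of the order neighbouring groups overlapped for IFIT1, IFIT2 and IFIT5, while for IFIT3 the MCF10AT1 controls were apart from the labelled METTL3 CRISPR libraries of that line. IFIT5 had group means from 275 to 459 in the 5 lower groups, and each of these overlapped its neighbour.

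Levels of different genes were compared per kilobase of the canonical transcript, since a longer transcript collects more reads. In the labelled METTL3 CRISPR libraries of MCF10CA1h, OAS1 was highest at 4073 ± 1083 normalized counts per kilobase (SD, n = 3), followed by OAS3 at 1657 ± 577, IFIT3 at 1467 ± 753, OAS2 at 1348 ± 499, OASL at 949 ± 370.4 and IFIT1 at 833 ± 471. IFIT5 (195 ± 69.6) and IFIT2 (158 ± 37.9) were well under the rest. In the MCF10A controls OAS1 (1221 ± 338) and OAS3 (511 ± 195) were again the highest, and the other 6 members were between 26.2 and 96.2 per kilobase. OAS1, whose canonical transcript is the shortest of the 8 at 1631 bases, thus had the highest mean of the 8 in every group on this scale, which in the labelled METTL3 CRISPR libraries of MCF10AT1 (183 ± 179.7 against 110.3 ± 39.3 for IFIT5) rested on library a. The isoforms used in these cells were not measured, which limits the scale.

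The replicates of a group deviated together across the members. On log2(normalized count + 1), MCF10A control library b was the lowest of its group for 8 of 8 members and lay 0.98 below the group mean on average over the members. In the labelled METTL3 CRISPR group of MCF10CA1h, library a was the highest for 8 of 8 members, 0.58 above the group mean, and library b the lowest for 7. In the labelled METTL3 CRISPR group of MCF10AT1, library a was highest for 6 members (0.89 above) and library c lowest for 7 (0.86 below). The other interferon-stimulated genes of a fixed list, 32 genes, deviated in the same libraries of 2 of these groups, by -1.05 in MCF10A control b and by 0.53 in library a of MCF10CA1h, but by only 0.13 and -0.28 in libraries a and c of MCF10AT1. In the MCF10CA1h controls and the labelled METTL3 CRISPR libraries of MCF10A the mean over the members deviated by at most 0.05 in size. Single members still varied in the latter group, IFIT1 by 3.05-fold and OASL by 2.32-fold between the lowest and the highest library. Breast epithelial markers deviated by at most 0.17 in any library.

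**Figure D3:**
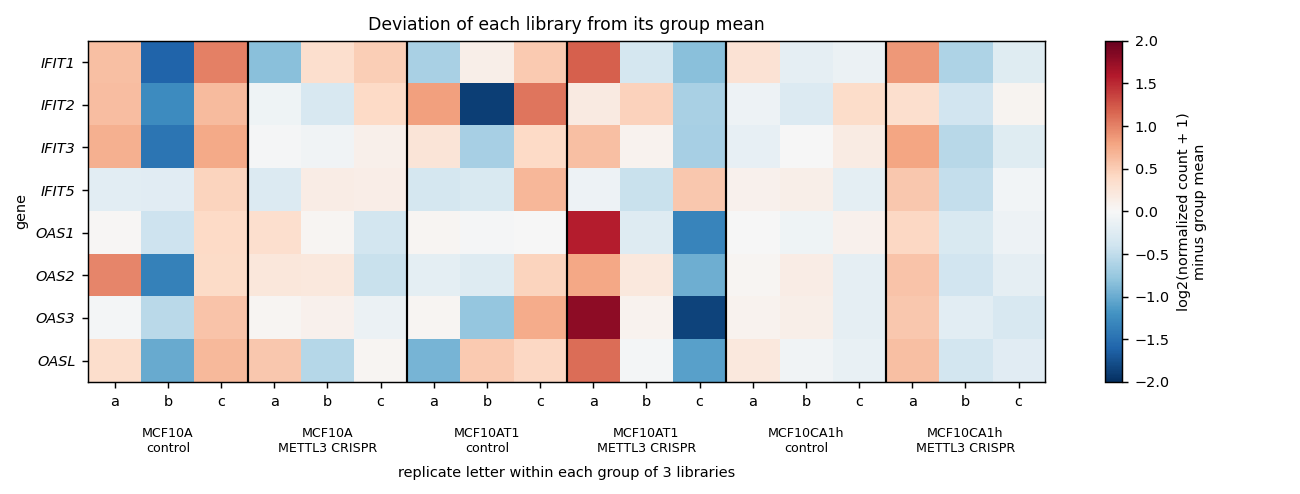
Deviation of each library from its group mean, in log2(normalized count + 1), for the 8 members (rows) and 18 libraries (columns, grouped in threes by line and label), with red above and blue below the mean. MCF10A control b is below its group mean in every row, and library a of the labelled METTL3 CRISPR group of MCF10CA1h is above it in every row.

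The members were correlated with each other over the 18 libraries, given here as a description, since the libraries share 6 groups. Pearson's r over the 28 pairs was between 0.35 and 0.96 with a median of 0.71, and after the group means were removed it was between -0.09 and 0.89 with a median of 0.62. OAS1 and OAS3, neighbours on chromosome 12, had the highest r in both forms (0.96 and 0.89). The 7 pairs with IFIT5 had a median r of 0.14 within groups, against 0.69 for the 21 pairs without it, while over the 18 libraries the medians were 0.72 and 0.70. IFIT5 passed none of the 9 comparisons above, other than with the replicate block or with 1 library left out. The latter was in MCF10CA1h without labelled METTL3 CRISPR library b (log2 fold change 0.96, limma, adjusted p = 0.0207).

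The genes whose pattern was most like the mean of the members over the 18 libraries, out of 15889 genes, were RTP4 (r = 0.94), ISG15 (0.94), SP110 (0.94), TMEM40 (0.92), IFI44 (0.91), PARP9 (0.91), IRF7 (0.91), LINC02376 (0.91), FCAR (0.91) and EPSTI1 (0.91). Of these 10, 7 are in the fixed lists of interferon pathway genes. TMEM40, LINC02376 and FCAR are in none of them.

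The rest of the interferon pathway was read from lists fixed by function. In MCF10CA1h, the labelled METTL3 CRISPR libraries had 29 of 32 tested other interferon-stimulated genes higher and 0 lower, with a list median of 2.30. The largest were IFI27 (log2 fold change 5.89), IFI6 (5.65), ISG15 (4.83), a ubiquitin-like modifier, IFI44 (4.82) and XAF1 (4.20). XAF1 had means of 0.44 in the controls and 31.6 after CRISPR, so it reached the filter only through the labelled METTL3 CRISPR libraries. MX1, a defining antiviral GTPase, was at 25.1 ± 16.2 and 48.8 ± 12.4 (SD, n = 3) and did not pass (log2 fold change 1.15, adjusted p = 0.169). In MCF10A 4 of 31 were lower and 0 higher, with a median of -1.04: IFI27 (-6.52), BST2 (-5.55), IFI6 (-5.38) and HELZ2 (-2.43). In MCF10AT1 7 of 27 were higher and 2 lower, with a median of 0.39. BST2, a membrane protein that tethers virus particles, had a log2 fold change of 9.03 there, UBE2L6 of 7.09 and IFITM1 of 5.19, while IFI27 (-3.46) and TRIM22 (-1.89) were lower.

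Upstream of the members, IRF9 (log2 fold change 3.01, adjusted p = 1.8e-05) and STAT2 (1.84, adjusted p = 4.1e-05), which belong to the complex that binds the response element, were higher in MCF10CA1h. JAK1 (0.18) and TYK2 (0.13), the kinases, did not pass. IRF9 was lower in MCF10A (log2 fold change -1.98, adjusted p = 0.0333), where STAT2 was at -0.26 (adjusted p = 0.438), JAK1 at -0.50 and TYK2 at 0.22, none of them past the threshold. In MCF10AT1 neither IRF9 (-0.51, adjusted p = 0.505) nor STAT2 (-0.45, adjusted p = 0.426) passed, and TYK2 was at 1.28 (adjusted p = 0.163). Of 11 RNA and DNA sensing genes tested, 7 were higher in MCF10CA1h, led by the RNA sensors RIGI (3.32) and DHX58 (2.899) and the transcription factor IRF7 (2.67). In MCF10AT1 STING1 (1.80) and IKBKE (2.60) were higher, and in MCF10A none of the 11 passed by limma and 6 had an unadjusted p under 0.05, among them IRF7 at -2.54 (adjusted p = 0.0589). Of 4 interferon receptors none passed by limma in MCF10AT1 or MCF10CA1h (1 and 0 at an unadjusted p under 0.05). IFNLR1, the receptor chain for type III interferons, was higher in the labelled METTL3 CRISPR libraries of MCF10A (70.8 ± 13.8 against 7.14 ± 3.92, SD, n = 3, log2 fold change 3.26, adjusted p = 0.0173). Its control mean was below the filter, which it reached through the labelled METTL3 CRISPR libraries.

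Apart from IFNE, the interferon genes themselves were at low values. Of 9 in the list 8 had values, and IFNL1, a type III interferon, was the only 1 of 2 tested to pass in MCF10CA1h, at 2.66 ± 3.19 in the controls and 36.2 ± 12.3 after CRISPR (log2 fold change 3.71, adjusted p = 0.00827). IFNL1 reached the filter only through the labelled METTL3 CRISPR libraries, and with such low controls its fold change depends on the pseudocount. IFNL2, IFNL3 and IFNB1 were listed at 0 in all 3 MCF10CA1h controls and at 15.3 ± 5.38, 8.68 ± 1.89 and 4.99 ± 3.42 in the labelled METTL3 CRISPR libraries, below the filter, with no test. In MCF10AT1 IFNE was higher (222 ± 98.8 against 28.9 ± 19.0, SD, n = 3, log2 fold change 2.97, adjusted p = 0.0115).

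PDE12, which degrades 2-5A, was at log2 fold changes of 0.094 (MCF10A), -0.62 (MCF10AT1) and -0.21 (MCF10CA1h), and it passed in none of the 3 lines by limma, also without adjustment. Of 5 genes for handling double-stranded RNA, EIF2AK2 (1.15), the kinase PKR, and ADAR (0.54), which edits double-stranded RNA, were higher in MCF10CA1h, and in MCF10A and MCF10AT1 none passed by limma (0 and 3 at an unadjusted p under 0.05). Of 5 negative regulators, USP18, which removes ISG15 and damps the receptor, was higher in MCF10CA1h (2.42), and SOCS3 was higher in MCF10AT1 (2.24).

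**Figure D4:**
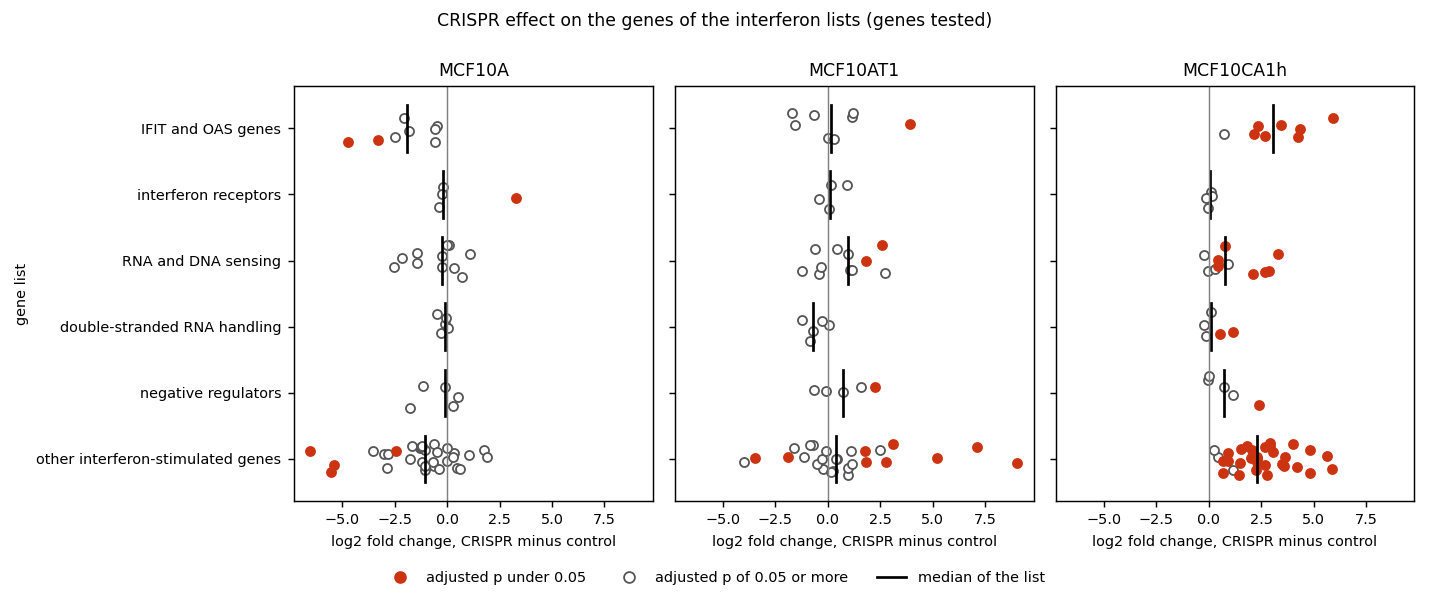
Log2 fold change of the labelled METTL3 CRISPR libraries against the controls for the tested genes of each interferon list, by line, with 1 point per gene, filled where the adjusted p was under 0.05, and a bar at the list median (ligands, signalling genes and the genes around 2-5A are not drawn). The 8 IFIT and OAS genes lie below 0 in MCF10A, on both sides of 0 in MCF10AT1 and above 0 in MCF10CA1h.

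Genes beside the members in the genome were read as well. Of 13 neighbours with values, 7 passed the filter in each line, and 1 differed in MCF10A, 2 in MCF10AT1 and 2 in MCF10CA1h. Of all genes tested, 2.65%, 13.0% and 12.8% passed in these lines. The neighbours that differed were all lower, but with so few genes nothing particular to these places is read from it. In MCF10A the gene was P2RX4, 170819 bases from OASL (log2 fold change -1.68, adjusted p = 0.0270). In MCF10AT1 the genes were DTX1 (-3.85, adjusted p = 0.0167) and RASAL1 (-3.28, adjusted p = 0.00256), 45007 and 87096 bases from the OAS cluster. In MCF10CA1h they were RASAL1 (log2 fold change -1.20, adjusted p = 0.0152) and PANK1, 157892 bases from the IFIT cluster (-0.80, adjusted p = 0.0274). LIPA, a lysosomal lipase gene whose model overlaps the IFIT cluster on the opposite strand, differed by 0.20, -0.80 and 0.10 log2 units in the lines in the same order, MCF10A first, none past the threshold. The kit marks strand, and whether the pseudo-alignment used it is not given in the sources used here. IFIT1B, a close relative of IFIT1 inside the cluster with which reads could be shared, was listed at 0 in all libraries but 2, where it was at 1.00 and 1.14.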

How the data were processed

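The authors made stranded libraries with a total RNA kit that depletes ribosomal RNA, although the heading of that method and the labels name polyA RNA, which was not settled here. Paired-end reads were pseudo-aligned to hg38 transcripts by kallisto 0.46.1, collected per gene by tximport and normalized by DESeq2 1.26.0 under R 4.1.1, per the submitters' processing notes and the methods. What they deposited is a signal per gene, the normalized count, and no longer a count of reads. Between 13.3% and 36.3% of low values were whole multiples of the most frequent low value of their library (tolerance 0.02), so reads were not recovered and no count test was run.

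The test was limma 3.58.1 in R 4.3.3, with moderated variances that follow an intensity trend, on log2(normalized count + 1), which understates the change of low genes. A gene was tested where its mean in the fitted libraries reached 10. A gene with low values in a group can therefore pass this filter through the other libraries alone. Tests were two-sided, with Benjamini-Hochberg adjustment over all genes and a threshold of 0.05. Each line was fitted alone (3 against 3 libraries), the 9 controls were fitted together, and differences between lines were interaction contrasts in a fit of 18 libraries. Python 3.11.15, pandas 2.3.3, NumPy 2.4.6, SciPy 1.17.1 and Matplotlib 3.10.9 were used for the rest. The table held 24646 further rows without a gene identifier or without values in every library. A further 294 genes, whose symbol a gene with higher values also held, kept their identifier as name.

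The replicate letters come from the sample titles. Deviations from the group means of same-lettered control and labelled METTL3 CRISPR libraries had a correlation across 15897 genes of 0.22, 0.20 and 0.12 in MCF10A, 0.11, 0.29 and 0.48 in MCF10AT1 and -0.01, 0.02 and 0.05 in MCF10CA1h for a, b and c, so the letters were taken to pair the libraries of the first 2 lines only. The labels do not state such a pairing, and libraries with different letters were not compared. The fit without the letter was kept as the first one. Members, gene lists and alternatives were chosen with earlier results of these data known. All 8 members are named, together with METTL3, up to 5 genes of each pathway list past the threshold in each line, any gene of the smaller lists, the 10 genes most like the members and the neighbouring genes. Markers named beside a result, MX1 and TRIM22 were chosen after their values were seen. Alternatives were pseudocounts of 0.5 and 5, no filter or one at a mean of 50, no trend, other scalings, the replicate block, a fit of all 18 libraries and each library left out. Some genes of the signalling and 2-5A lists are not reported here.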

Additional observations from a re-analysis of the deposited data

Results flagged for a closer look

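Results were flagged where the effect of the labelled METTL3 CRISPR differed between 2 lines by the interaction test (limma, adjusted p under 0.05). No outlier test was made, since groups hold 3 libraries.

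Between MCF10CA1h and MCF10A the flagged differences, in log2 units, were 10.67 for IFIT1 (adjusted p = 9.5e-06), 6.76 for IFIT2 (0.00046), 6.43 for IFIT3 (0.00010), 6.76 for OASL (0.00012), 4.16 for OAS2 (0.00249) and 3.25 for OAS1 (0.00827). In each, the log2 fold change was positive in MCF10CA1h and negative in MCF10A. Between MCF10CA1h and MCF10AT1 they were 6.60 for IFIT1 (adjusted p = 6.8e-05), 4.27 for IFIT2 (0.00342), 3.21 for IFIT3 (0.00501), 4.38 for OAS1 (0.00018) and 3.75 for OAS3 (0.0059). Between MCF10AT1 and MCF10A they were 4.07 for IFIT1 (adjusted p = 0.00413), 3.22 for IFIT3 (0.00417), 5.71 for OAS2 (2.3e-05) and 4.51 for OASL (0.00051). IFIT5 passed in none of the 3 comparisons without the replicate block, and with it the difference between MCF10CA1h and MCF10A passed (adjusted p = 0.0421).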

How the results depend on the processing

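Of 72 member results (8 genes in 9 comparisons), 67 kept their direction under every alternative tried. The exceptions were IFIT2 in MCF10AT1, at 0.0019 with a pseudocount of 0.5 and between -0.94 and 0.53 with 1 library left out, and 4 differences between controls with 1 library left out: MCF10AT1 against MCF10A for IFIT2 (-1.14 to 0.43) and IFIT5 (-0.45 to 0.10), MCF10CA1h against MCF10A for IFIT3 (-0.95 to 0.17) and MCF10CA1h against MCF10AT1 for IFIT1 (-0.18 to 0.41). None of these 5 had passed the test.

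With 1 library left out, the members past the threshold numbered 0 to 4 in MCF10A, 1 to 2 in MCF10AT1, 7 to 8 in MCF10CA1h, 4 to 5, 6 to 7 and 5 to 6 for the effect differences (MCF10AT1 minus MCF10A, MCF10CA1h minus MCF10A, MCF10CA1h minus MCF10AT1), and 4 to 6, 2 to 4 and 3 to 4 for the same pairs of controls. The cause was not tested. In MCF10AT1 the count of 2 came without labelled METTL3 CRISPR library a. In the fit of all 18 libraries 4 members were called for MCF10A, 2 for MCF10AT1 and 6 for MCF10CA1h.

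The replicate block raised the called members from 2 to 4 (MCF10A) and from 1 to 2 (MCF10AT1). For MCF10CA1h, whose letters showed no pairing, it raised them from 7 to 8 (IFIT5, adjusted p = 0.0392), with 1876 genes called against 1929. It also called IFIT5 (MCF10CA1h minus MCF10A, adjusted p = 0.0421) and OASL (MCF10CA1h minus MCF10AT1, 0.045) among the effect differences and IFIT3 (MCF10AT1 minus MCF10A, 0.0428) among the controls. The IFIT1 calls among the controls were lost with it (adjusted p of 0.051 and 0.0507), and it changed no other call.

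Counts over all genes moved too. For MCF10A 409 became 1172 with the block, 237 without the intensity trend and 52 to 1418 with 1 library left out. For MCF10AT1 2091 became 3939 with the block, 5146 in the fit of all 18 libraries and 1020 to 2439 with 1 left out, and for MCF10CA1h 1929 became 248 in that fit, 1123 without the trend and 1089 to 1785. The 849 genes of the MCF10CA1h minus MCF10A difference became 1283 with the block and 470 to 1220 with 1 left out. The 4391, 5920 and 3410 genes of the controls (MCF10AT1 minus MCF10A, MCF10CA1h minus MCF10A, MCF10CA1h minus MCF10AT1) became 1661 to 8142, 3675 to 7623 and 1608 to 5593. Scaling to equal sums moved the median of all genes by -0.17 (MCF10AT1), 0.088 (MCF10A) and -0.058 (MCF10CA1h), and by -0.26, -0.15 and 0.11 in the 3 effect differences (-0.14, -0.024 and 0.11 in the controls), and the higher share of calls in the effect differences went from 51.6% to 39.6%, from 68.3% to 58.2% and from 53.2% to 57.5%. No member changed direction with it. The unknown depth limits low values such as IFIT1 in MCF10A.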
